A study of Mus musculus with 4 samples.

Results

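The tristetraprolin family and the BTG factors are proteins that shorten the life of messenger RNAs. The genes described here are Zfp36, Zfp36l1, Zfp36l2, Btg1 and Btg2, taken by the gene symbol that the array's annotation gives to a probe set. They are 5 of 18193 genes with a probe set of their own, and they are read by 11 of 45037 probe sets. Zfp36 has 1 probe set, Zfp36l1 and Btg2 have 2 each, and Zfp36l2 and Btg1 have 3 each.

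The cells were CD11b+ splenocytes of mice that met repeated social threat (environment HighThreat) and of control mice (environment LowThreat). Each group had 2 pools, each pool held the RNA of 5 mice, and each pool was hybridised to 1 Affymetrix MOE430 2.0 array. CD11b is an integrin chain of neutrophils, monocytes and macrophages, and some lymphoid and dendritic cells carry it too. Strain, sex, age and the threat procedure are not given in the sources used here.

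Tristetraprolin, the product of Zfp36, has a pair of CCCH zinc fingers that bind AU-rich elements of mRNAs such as that of Tnf, and it brings in the CCR4-NOT complex, which removes the poly(A) tail. The products of Zfp36l1 and Zfp36l2 share these zinc fingers and are known for restraining the cell cycle in developing lymphocytes. BTG1 and BTG2 do not bind AU-rich elements. They bind the CNOT7 and CNOT8 deadenylases directly and are known as antiproliferative factors. Zfp36 and Btg2 are both immediate early genes, transcribed within minutes of a stimulus, and Btg2 is also a target of p53. In macrophages tristetraprolin limits the output of inflammatory cytokines.

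Btg2 fell in both of its probe sets, by a size close to the median fall of the listed immediate early genes described below. That list was chosen with earlier results of these data known. Zfp36 fell by a small amount. Btg1 gave probe sets that moved in opposite directions, and no probe set of Zfp36l1 or Zfp36l2 passed the test. A probe set was called, and is said to have risen or fallen, at a limma adjusted p under 0.05 over all probe sets. Of the 11 member probe sets, 4 fell, 1 rose and 6 were not called. Of all 45037 probe sets 15.8% were called, 8.67% lower and 7.09% higher. Among those with a mean above the median level, where all 11 member probe sets lie, 29.1% were called. The median log2 fold change was -0.07 over the 11 probe sets and -0.01 over all probe sets. A fold change is social threat minus control on the log2 scale throughout.

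Zfp36 and Btg2, both known to be switched on quickly by signals, were picked for display because their every probe set fell. Only their promoter windows are printed. Each is the stretch of 250 bases before the annotated start, from RefSeq on GRCm38.p6, written on the minus strand of the chromosome, 5′ to 3′. The Zfp36 window is chr7:28379229-28379478 and the Btg2 window is chr1:134079156-134079405. Capitals mark a CArG box, the letters bound by serum response factor, in Zfp36 and a full cAMP response element, TGACGTCA, in Btg2.
Zfp36: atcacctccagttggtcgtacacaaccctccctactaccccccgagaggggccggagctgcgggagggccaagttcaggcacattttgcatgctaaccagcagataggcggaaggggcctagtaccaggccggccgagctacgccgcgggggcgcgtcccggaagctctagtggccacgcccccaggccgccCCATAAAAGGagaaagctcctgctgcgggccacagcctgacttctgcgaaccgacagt
Btg2: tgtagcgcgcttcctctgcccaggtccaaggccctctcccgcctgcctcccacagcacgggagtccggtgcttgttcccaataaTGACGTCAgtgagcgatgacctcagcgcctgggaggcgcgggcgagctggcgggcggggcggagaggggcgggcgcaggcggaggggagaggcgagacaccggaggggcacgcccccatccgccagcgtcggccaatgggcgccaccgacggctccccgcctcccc

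The CArG box of Zfp36 lies between 58 and 49 bases before the start, and 1.47% of 32851 promoter windows of the same length hold one on either strand. The cAMP response element of Btg2 lies between 166 and 159 bases before the start, and 1.55% of windows hold one. Both windows also hold 1 match to GCGNGGGCG, an EGR site, found in 4.7% of windows. Windows were at hand for 4 of the 5 genes. That of Btg1, on chromosome 10, holds the half-site TGACG of the cAMP response element 2 times and no full element (17.8% of windows hold the half-site, which the full element contains on both strands). That of Zfp36l1, on chromosome 12, holds 1 match to the AP-1 site TGANTCA, found in 6.75% of windows, and no other motif of those searched. The GC box GGGCGG, found in 32.7% of windows, occurs once in the Zfp36 window, where it shares 1 base with the CArG box, 3 times in the Btg2 window and 2 times in that of Btg1. The NF-kappaB site, held by 7.25% of windows, has no match in any of the 4 windows. Such matches describe letters, and the arrays do not show which factors were bound.

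Zfp36 stood at log2 levels of 11.97 and 11.96 in the social threat pools, against 12.10 and 12.18 in the control pools, by probe set 1452519_a_at. Both social threat pools lay below both control pools. Zfp36 fell by 0.18 on the log2 scale (SE 0.03, 95% interval -0.25 to -0.10, limma adjusted p = 0.00646), a 1.13-fold difference. The call was lost without social threat pool 1 (adjusted p = 0.0784), without social threat pool 2 (0.0846) and without the variance trend of the test (0.249), at log2 fold changes of -0.18, -0.17 and -0.18. In pooled RNA of sorted cells, fewer cells of a type and less RNA per cell cannot be told apart, for this gene and for those below.

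Zfp36l1 did not pass the test in either of its probe sets. By 1450644_at it stood at 10.94 and 11.01 in social threat pools and at 11.02 and 10.91 in control pools. The groups overlapped, and the log2 fold change was 0.01 with a 95% interval of -0.10 to 0.12 (limma adjusted p = 0.931). By 1422528_a_at it stood at 8.71 and 8.70 in social threat pools and at 8.76 and 8.78 in control pools. There the groups did not overlap, but the log2 fold change of -0.07 had an interval of -0.21 to 0.07 (adjusted p = 0.565). RefSeq also lists a pseudogene of Zfp36l1 on chromosome X, and whether its RNA reaches these probes was not tested.

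Zfp36l2, on chromosome 17, did not pass the test in any of its 3 probe sets. Its brightest, 1437626_at, stood at 11.77 and 11.75 in social threat pools and at 11.80 and 11.67 in control pools. The social threat pools lay between the control pools, with a log2 fold change of 0.02 and an interval of -0.08 to 0.12 (adjusted p = 0.816). By 1451034_at the control pools stood far apart, at 7.49 and 7.51 in social threat pools and 7.18 and 7.74 in control pools. The interval there was correspondingly wide, -0.31 to 0.39 around 0.04 (adjusted p = 0.922). Its log2 fold change was -0.24 without control pool 1 (adjusted p = 0.0826) and 0.32 without control pool 2, where it was called (adjusted p = 0.0301). By the dim 1439054_at the levels were 5.42 and 5.33 in social threat pools and 5.58 and 5.46 in control pools, a log2 fold change of -0.14 (interval -0.41 to 0.13, adjusted p = 0.535). For the brightest probe sets of Zfp36l1 and Zfp36l2 the intervals together span -0.10 to 0.12, and differences within them remain possible.

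Btg1, the BTG factor known for its high level in resting lymphocytes, went different ways in its probe sets. By its brightest, 1426083_a_at, it stood at 12.45 and 12.48 in social threat pools and at 12.57 and 12.55 in control pools, without overlap. It fell there by 0.10 (SE 0.03, limma adjusted p = 0.0343), a 1.07-fold difference. By 1437455_a_at it stood at 11.83 and 11.93 in social threat pools and at 11.90 and 11.96 in control pools, which overlap. The log2 fold change of that probe set was -0.04, with an interval of -0.13 to 0.05 (adjusted p = 0.574).

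The third Btg1 probe set, 1442018_at, rose. It stood at 9.47 and 9.44 in social threat pools, against 8.97 and 9.26 in control pools. The control pools differed from each other by almost as much as the groups did. The log2 fold change was 0.34 (SE 0.09, interval 0.14 to 0.54, adjusted p = 0.0281), a 1.27-fold difference. It was 0.20 without control pool 1 and 0.49 without control pool 2, and was called in both. Neither Btg1 call was kept without social threat pool 1 (adjusted p = 0.315 for 1426083_a_at and 0.216 for 1442018_at), without social threat pool 2 (0.147 and 0.164) or without the variance trend (0.506 and 0.134). The call of 1426083_a_at was also lost without control pool 1 (0.0743) and after a second quantile normalization (0.172). The mean of the 3 probe sets gave a log2 fold change of 0.07 with no call (adjusted p = 0.336), opposite in sign to the brightest probe set. The array annotation gives all 3 the symbol Btg1, and the part of the transcript each reads is not stated in the sources used here. RefSeq lists the related genes Btg1b and Btg1c on chromosome X, for which the table has 0 probe sets, so RNA from them could not be separated.

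Btg2 fell by both of its probe sets. By 1416250_at it stood at 11.81 and 11.75 in social threat pools, against 12.30 and 12.36 in control pools. By 1448272_at it stood at 10.47 and 10.39 in social threat pools, against 11.07 and 11.01 in control pools. In both, the gap between the groups was several times the gap between pools of a group. The means of 1416250_at were 11.78 ± 0.04 in social threat pools and 12.33 ± 0.04 in control pools (SD, n = 2 each), and it fell by 0.55 (SE 0.03, interval -0.63 to -0.48, limma adjusted p = 6.23e-06), a 1.47-fold difference. Those of 1448272_at were 10.43 ± 0.06 in social threat pools and 11.04 ± 0.04 in control pools, and it fell by 0.62 (SE 0.05, interval -0.72 to -0.51, adjusted p = 2.14e-05), a 1.53-fold difference. Btg2 was the 1 member whose calls were kept in each alternative run, leaving out any single pool included. Its intervals lie wholly below that of Zfp36, but the difference between the genes was not tested.

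**Figure D1:**
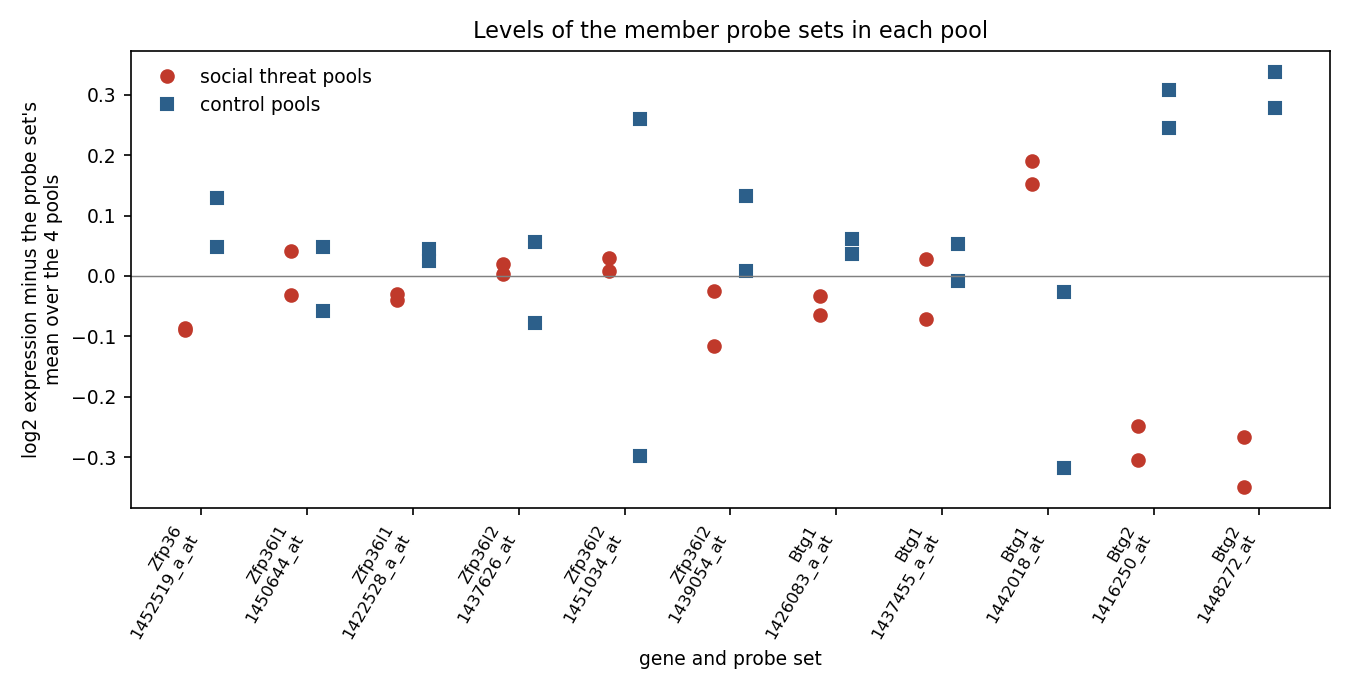
Log2 expression of each of the 11 member probe sets in each pool, minus the probe set's own mean over the 4 pools (vertical axis), with social threat pools as red circles and control pools as blue squares. The Btg2 circles lie far below the squares, at 11.81 and 11.75 against 12.30 and 12.36 for 1416250_at, while the control pools of Zfp36l2 1451034_at spread from 7.18 to 7.74 around the social threat pools.

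Pools of the groups did not overlap for 7 of the 11 probe sets, 6 with social threat below control and 1 above. Of all probe sets 52.7% did not overlap. By the brightest probe set of each gene, 3 of the 5 genes were called, all lower (Zfp36, Btg1 and Btg2). Of all genes, dim ones included, 21.1% were called, 11.7% lower and 9.4% higher. The median over the 5 genes was -0.10, and over all genes -0.02. By the mean of all probe sets of a gene, 2 of the 5 were called. Btg1 was not called by that mean, at 0.07 (limma adjusted p = 0.336), and its probe set 1442018_at rose.

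**Figure D2:**
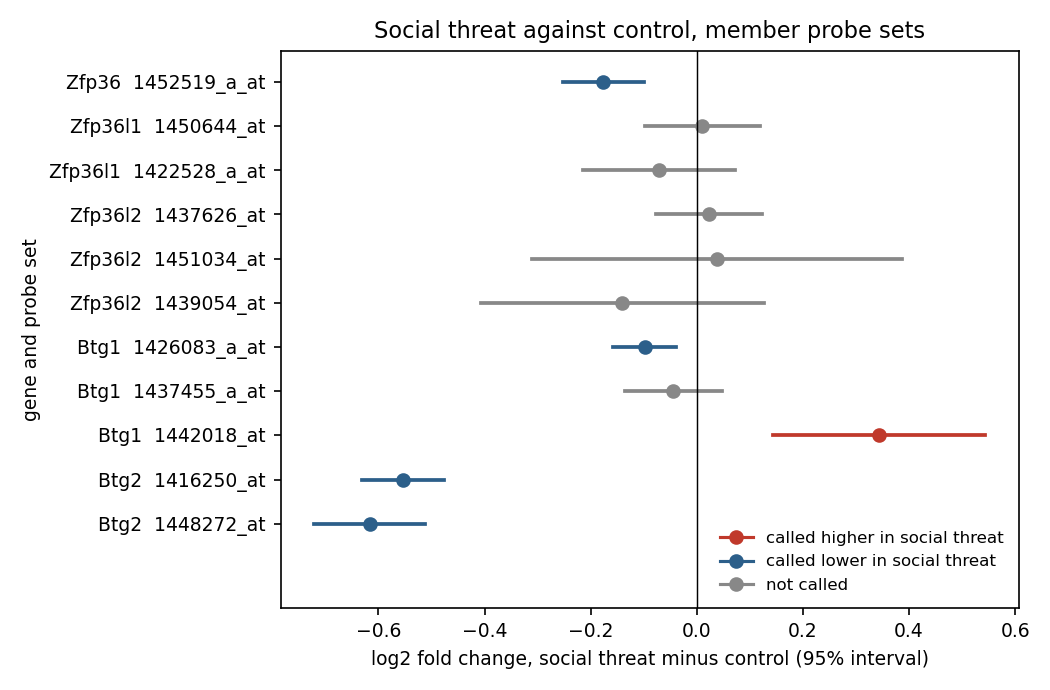
Log2 fold change of each member probe set, social threat minus control (horizontal axis), with its 95% interval as a bar, coloured by call. The 2 probe sets of Btg2 lie at -0.55 and -0.62, Zfp36 at -0.18, the Btg1 probe sets between -0.10 and 0.34, and the bars of Zfp36l1 and Zfp36l2 cross 0.

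Marker genes of several cell types moved with the groups, where 9.4% of all genes rose and 11.7% fell. Itgam, which encodes CD11b, stood at 11.64 and 11.59 in social threat pools, against 10.47 and 11.01 in control pools, and rose by 0.88 (SE 0.13, adjusted p = 0.0015). Of the 9 myeloid markers, all above the median of the array, 6 rose and 2 fell, Csf1r by 0.26 (adjusted p = 0.000144) and Adgre1 by 0.35 (adjusted p = 0.000756). Markers of B cells fell for 7 of 8 genes (summed linear level 1794 to 1896 in social threat pools and 3933 to 4021 in control pools), of T cells for 7 of 7 (563 to 593 and 1129 to 1176) and of NK cells for 5 of 6 (1065 to 1093 and 1933 to 2107). Conventional dendritic cell markers fell for 8 of 8 (2185 to 2329 in social threat pools and 5261 to 5326 in control pools). Granulocyte precursor markers rose for 8 of 8 (47931 to 48124 in social threat pools and 24404 to 24854 in control pools), erythroid markers for 6 of 7 (1453 to 1561 and 466 in both control pools) and platelet markers for 5 of 6 (941 to 960 and 514 to 545). In the granulocyte precursor sum the brightest genes, Ngp, Camp and Ltf, weigh most, and they rose by 0.54, 0.68 and 1.00. The median log2 fold change of that list was 3.76, and its largest was 4.85, for Mpo. Of the markers of all these cell types, Xcr1 and Gp6 had means at or below the median of the array. The part of these shifts in the changes of Btg2, Zfp36 and Btg1 was not tested.

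The genes that the members work with were described from lists, each gene by its brightest probe set. In the machinery of mRNA decay, 45 genes of 5 lists were measured, of which 2 rose and 5 fell. That is 15.6%, with a median log2 fold change of -0.04. Of all genes, dim ones included, 21.1% were called, and of probe sets above the median level 29.1% were. Among 10 subunits of CCR4-NOT, the complex that both families bring to an mRNA, 1 rose, 1 fell and 8 were not called (median 0.05). Cnot7, a catalytic deadenylase and a direct partner of BTG proteins, stood at 9.73 and 9.77 in social threat pools, against 9.38 and 9.30 in control pools. It rose by 0.41 (SE 0.06, limma adjusted p = 0.00103), and all 3 of its probe sets were called higher, by 0.38 to 0.50. Cnot8, which encodes the other direct partner, was not called at 0.04 (adjusted p = 0.789). Cnot6l, a deadenylase of the other catalytic type, stood at 9.84 and 9.71 in social threat pools, against 10.07 and 10.16 in control pools. It fell by 0.34 (SE 0.06, adjusted p = 0.00385), with 3 of 4 probe sets called lower, and the brightest was not called without social threat pool 2 (adjusted p = 0.0892) or without the variance trend (0.0683).

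Of the 3 other BTG and TOB genes measured, Tob2 fell by 0.40 (SE 0.07, adjusted p = 0.00529) and Tob1 and Btg4 were not called. By its brightest probe set Tob2 stood at 9.19 and 9.37 in social threat pools, against 9.62 and 9.74 in control pools. That call was lost without social threat pool 1 (log2 fold change -0.305) and without the variance trend (limma adjusted p = 0.062). Of the 5 Tob2 probe sets 4 were called lower, and the mean of all 5 was called at -0.40 (adjusted p = 0.00121). Of 6 other deadenylases and poly(A)-binding proteins, Parn, a poly(A)-specific ribonuclease, fell by 0.52 (SE 0.10, adjusted p = 0.00716). Both Parn probe sets were called lower. The call of the brightest was lost without either social threat pool (log2 fold changes -0.53 and -0.50). Pabpc1, the main cytoplasmic poly(A)-binding protein, was not called by its brightest probe set at -0.07 (adjusted p = 0.0867). Its other, dimmer probe set fell by 0.64 (adjusted p = 0.0022), and the mean of both was called at -0.36 (adjusted p = 0.000996).

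Decapping and 5′ decay genes showed 1 call among 13, with a median of -0.08, where 21.1% of all genes were called. Eif4enif1, which carries the cap-binding protein into processing bodies, rose by 0.35 (SE 0.07, adjusted p = 0.00845), a call lost without either social threat pool (0.146 and 0.129). Ddx6, the helicase of those bodies and the brightest of the list, stood at 11.10 and 11.09 in social threat pools and at 11.22 and 11.13 in control pools and was not called (adjusted p = 0.261), except without control pool 2 (0.0338). Of 13 other RNA-binding proteins of mRNA stability, 2 fell and 0 rose (median -0.04), where 11.7% of all genes fell and 9.4% rose. Zc3h12c, a relative of the nuclease regnase-1, fell by 0.37 (SE 0.08, adjusted p = 0.0144) and the Pumilio protein gene Pum2 by 0.23 (SE 0.05, adjusted p = 0.0108), and both calls were lost without either social threat pool. Both probe sets of Zc3h12c were called lower. The Pum2 call was also lost without the variance trend (adjusted p = 0.146) and as the mean of its 4 probe sets (-0.14, adjusted p = 0.123). Hnrnpd, which encodes the AU-rich element binding protein AUF1, was not called at 0.08 (adjusted p = 0.411).

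Tristetraprolin is held inactive by phosphorylation through the kinases p38 and MK2, and protein phosphatase 2A opposes this. Of 9 genes of this control, 2 rose and 4 fell, with a median of -0.14, where 9.4% of all genes rose and 11.7% fell. Dusp1, the phosphatase that switches p38 off and itself an immediate early gene, stood at 12.46 and 12.47 in social threat pools, against 12.80 and 12.80 in control pools. It fell by 0.34 (SE 0.02, limma adjusted p = 1.56e-05). Mapkapk2, which encodes MK2, fell by 0.25 (SE 0.05, adjusted p = 0.0091), a call lost without either social threat pool (0.106 and 0.11) and without the variance trend (0.139). Ppp2cb, a catalytic subunit of phosphatase 2A, rose by 0.46 (SE 0.04, adjusted p = 9.68e-05), while the mean with its dim second probe set was not called (0.25, adjusted p = 0.0781). Other genes of the list, named after their values were seen, went the other way. Ppp2ca, the brighter catalytic subunit gene, fell by 0.14 (limma adjusted p = 0.0105). Mapkapk3, which encodes a kinase related to MK2, rose by 0.23 (adjusted p = 0.0254). These are RNA levels, and phosphorylation was not measured.

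Of 14 mRNAs reported as tristetraprolin targets, 7 fell, 0 rose and 7 were not called, with a median of -0.17. Of all genes, 11.7% were called lower and 9.4% higher. Tnf, the best known of them, stood at 9.86 and 9.85 in social threat pools and at 9.97 and 9.83 in control pools, and was not called (log2 fold change -0.04, interval -0.18 to 0.09, adjusted p = 0.731). Ptgs2, the inducible cyclooxygenase, stood at 10.37 and 10.38 in social threat pools, against 11.16 and 11.14 in control pools, and fell by 0.78 (SE 0.04, limma adjusted p = 1.87e-06). Ccl3, a chemokine gene, stood at 10.95 and 10.95 in social threat pools, against 11.60 and 11.70 in control pools, and fell by 0.71 (SE 0.04, adjusted p = 4.27e-06). Il6 stood at 4.98 and 4.96 in social threat pools, near the median of the array, against 6.43 and 5.95 in control pools, and fell by 1.22 (SE 0.16, adjusted p = 0.000618). Il1b, the brightest of the list, fell by 0.14 (SE 0.03, adjusted p = 0.00546), a call lost without either social threat pool (0.0702 and 0.0606) and without the variance trend (0.348).

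Of 6 mRNAs reported as targets of the Zfp36l1 and Zfp36l2 proteins in lymphocyte precursors, 3 rose, 1 fell and 2 were not called, where 9.4% of all genes rose and 11.7% fell. Those that rose drive the cell cycle. Ccne2, cyclin E2, stood at 6.22 and 6.28 in social threat pools, against 3.99 and 3.54 in control pools. It rose by 2.49 (SE 0.16, adjusted p = 7.42e-06), from control levels below the median of the array, where background can set the size. Ccnd3, cyclin D3, stood at 10.84 and 10.84 in social threat pools, against 9.81 and 9.93 in control pools, and rose by 0.97 (SE 0.05, adjusted p = 2.59e-06). Of its 3 probe sets 2 rose and 1 stood at -0.29 without a call (adjusted p = 0.0529), and their mean rose by 0.46 (adjusted p = 0.000536). E2f2, a transcription factor of the S phase, rose by 0.76 (SE 0.09, adjusted p = 0.000429). Ccnd2, cyclin D2, chosen after its values were seen, fell by 0.74 (adjusted p = 7.51e-05). In the same pools 8 of 8 markers of dividing cells rose, with a median of 2.13. Their summed linear level was 6694 to 6825 in social threat pools and 1604 to 1770 in control pools, and their part in these rises was not tested.

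All 14 genes of the list of other immediate early genes fell, with a median of -0.53 and values from -1.13 to -0.19. Of all genes, 11.7% were called lower. The list was chosen with earlier results of these data known, and it leaves out others of the class, such as Dusp1. Of the 14, 10 were called without the variance trend and 13 without either social threat pool, with all 14 below 0 in each case. Btg2, at -0.55, lies near that median, and Zfp36, at -0.18, lies just outside the smaller end of the range. Egr2 fell by 1.13 (SE 0.05, adjusted p = 9.64e-07), Egr1 by 0.94 (SE 0.04, adjusted p = 4.2e-07) and Atf3 by 0.91 (SE 0.04, adjusted p = 4.85e-07). Fos, the brightest of the list, stood at 11.97 and 12.04 in social threat pools, against 12.61 and 12.45 in control pools, and fell by 0.52 (SE 0.05). Of 10 other genes reported as p53 targets, the other class that holds Btg2, 2 rose, 2 fell and 6 were not called (median 0.00). Plk2, a polo-like kinase, fell by 0.67 (SE 0.07) and Cdkn1a, the cell cycle inhibitor p21, by 0.64 (SE 0.06, adjusted p = 5.78e-05), while Trp53inp1, a p53-induced nuclear protein, rose by 0.39 (SE 0.04, adjusted p = 0.000132). Plk2 has a dim second probe set that was not called, and averaging both gave a log2 fold change of -0.29 (adjusted p = 0.0228).

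**Figure D3:**
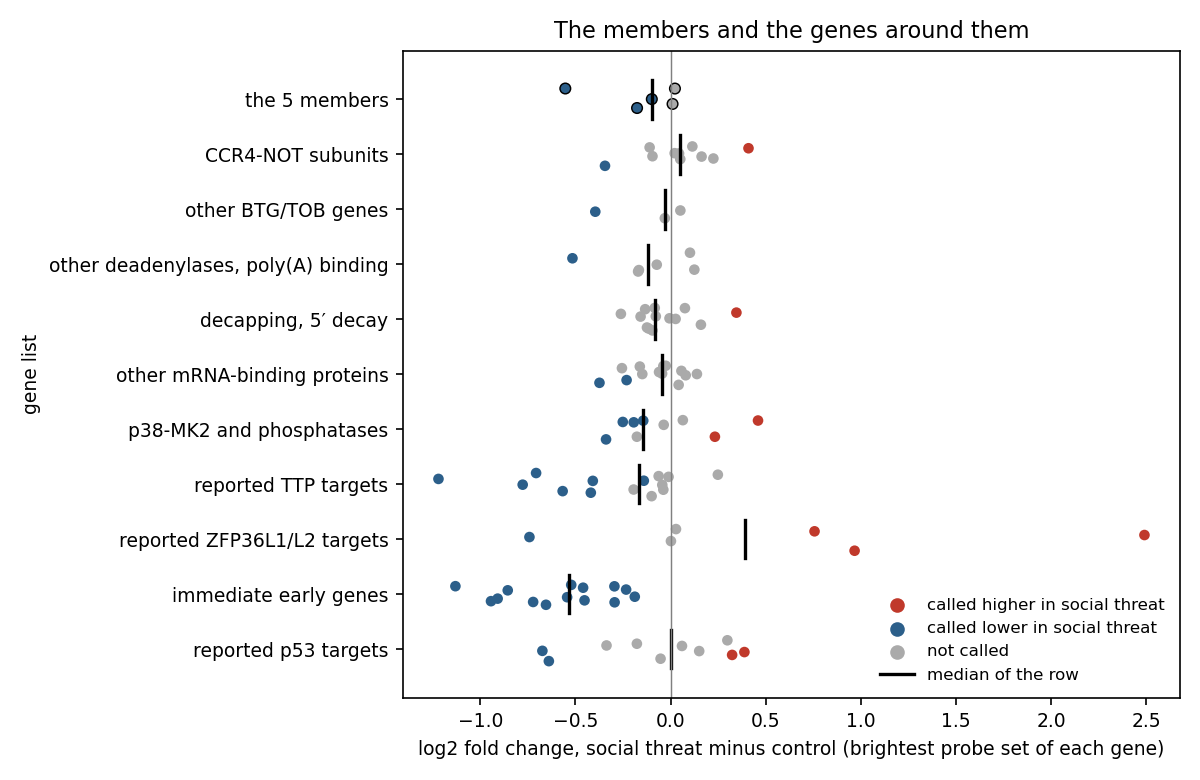
Log2 fold change, social threat minus control (horizontal axis), of the 5 members and of each gene list around them, 1 point per gene by its brightest probe set, coloured by call, with the median of each row as a black bar. All 14 listed immediate early genes lie below 0 with a median of -0.53, whereas the CCR4-NOT subunits centre on 0.05 and the reported ZFP36L1 and ZFP36L2 targets reach 2.49. The lists were chosen with earlier results of these data known.

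Likeness of profile was taken as the root mean square difference over the 4 pools after each gene's mean was subtracted, among 6534 bright genes. Over 4 pools this measure largely follows the size of the fold change. The genes nearest to Btg2 were Nr4a1 at 0.0104 log2 units, Flcn nearly level with it at 0.0107, and Ptpro at 0.0154. Nr4a1, a nuclear receptor gene already counted in the immediate early list, stood at 11.68 and 11.61 in social threat pools, against 12.15 and 12.23 in control pools. It fell by 0.54 (limma adjusted p = 1.56e-05), Flcn by 0.54 (adjusted p = 0.000289) and Ptpro by 0.57 (adjusted p = 9.95e-05). Nearest to Zfp36 were Esco1, Ppt1 and Ap1ar, of which only Ppt1 was called (adjusted p = 0.0171). None of the 3 nearest genes was called for Zfp36l1 (Jdp2, Ndufb5 and Cetn3), for Zfp36l2 (Chmp1a, Fabp5 and Arid4b) or for Btg1 (Ptpra, Eed and Aida).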

How the data were processed

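Each value is a log2 level of a probe set as deposited, which the authors computed with RMA, per the submitters' processing notes (version, genome build and annotation are not given in the sources used here). They ran from 2.26 to 14.25, with array medians of 4.41 to 4.43. RMA gives no detection calls, and the number of arrays limits the precision. Groups came from the sample titles. Nothing says that the pools came from separate cohorts, so the spread between these pools may be technical, and a processing batch cannot be told apart from the groups. The p-values rest only in part on that spread. Each probe set's variance was drawn towards the trend over all probe sets, which carried more weight (prior degrees of freedom 7.14, residual 2).

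Probe sets were named by the platform annotation. Of 45037, 34945 had 1 symbol, 932 had several and 9160 were not listed. RefSeq changed 0 symbols. Social threat was compared with control in limma 3.58.1 (R 4.3.3), with lmFit and eBayes with a mean-variance trend, two-sided, adjusted by Benjamini-Hochberg over all probe sets. Prior degrees of freedom were 7.14 and residual ones 2. The code was tested on simulated data. Lists took each gene's brightest probe set; summed linear levels add 2 to the power of the log2 values. Named genes were the members, the 3 called genes with the largest change and the brightest gene of each list, Tnf, Itgam and the 3 nearest profiles per member. The members and lists were chosen with earlier results of these data known. The alternatives were no variance trend, quantile normalization again, median centring, a filter on dim probe sets, the mean of a gene's probe sets, a replicate block and leaving out each pool. Same-numbered pools deviated together with a correlation of 0.05, and the labels do not pair them.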

Additional observations from a re-analysis of the deposited data

How the results depend on the processing

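The count of probe sets called, 7099, was 4689 without the variance trend and between 3171 and 8721 when a pool was left out; it was lowest without social threat pool 2 (3171) and pool 1 (3341). Of the 11 member probe sets, 5 were called, against 2 without the variance trend and 2 to 6 when a pool was left out, with 2 when either social threat pool was missing; the lone remaining pool is then assumed to vary like the others. With pool number as a replicate block, 8168 probe sets and 5 member probe sets were called and the call of no member probe set changed. Signs turned only where the difference was not called, or, for Btg1, under the mean of all probe sets of a gene (0.067, against -0.10 for 1426083_a_at). That mean gave -0.030 for Zfp36l1 and -0.027 for Zfp36l2, and a second quantile normalization gave -0.010 for Zfp36l2 by 1437626_at. When a pool was left out, the log2 fold change lay between -0.043 and 0.063 for Zfp36l1 (1450644_at), between -0.044 and 0.090 for Zfp36l2 (1437626_at), between -0.242 and 0.317 for Zfp36l2 (1451034_at), between -0.094 and 0.006 for Btg1 (1437455_a_at) and between -0.12 and 0.03 for Tnf. Of 98 genes measured in the lists other than the marker lists, 42 were called (42.9%), where 21.1% of all genes were. The 42 include all 14 listed immediate early genes. Over all alternatives the count was 29 to 44. RMA compresses differences of dim probe sets, which limits the reading of Zfp36l2 1439054_at.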
